A study of Mus musculus with 16 samples.

Results

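The genes described here encode parts of the motile cilium axoneme, taken from the deposited expression table by name. The name rule took gene families whose symbols begin with Dnah, Dnaic, Dnai, Dnal, Rsph, Cfap, Tekt, Spag, Ttc or Drc, and added 7 genes by symbol: Enkur, Ak7, Hydin, Dynlrb2, Tmem212, Foxj1 and Ccdc146. Of the table's 39171 features the names took 101, and 84 of these reached the level rule of at least 1 FPKM in at least 4 of the 16 libraries, as did 16340 features in all. FPKM is a fragment count scaled to transcript length and library size. The members were thus chosen by name and selected on their FPKM in these libraries, and the families were picked with results of these data known. The libraries came from 4 mice of the C57BL/6 strain at postnatal day 15. Their genotype was heterozygous IL-33-mCherry, reporting the alarmin cytokine gene Il33, together with Aldh1l1-GFP, which marks astrocytes. From each mouse, astrocytes of the thalamus and of the spinal cord were sorted into reporter-positive and reporter-negative cells, which gave 4 groups of 4 libraries with each mouse once in every group. All 4 groups therefore share both reporters, the strain and the age, and differ in region and in the Il33 reporter. The sources used here do not say how GFP was gated.

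A motile cilium is built on an axoneme of outer doublet microtubules around a central pair. Outer and inner dynein arms, whose motor subunits are the Dnah heavy chains, slide the doublets against each other, and radial spokes, the central apparatus and the nexin-dynein regulatory complex coordinate that sliding. In the brain and spinal cord, multiciliated ependymal cells line the ventricles and the central canal and move cerebrospinal fluid, while most other neural cells carry at most a primary cilium, which lacks these dynein arms and spokes. Foxj1 is the transcription factor that switches on motile cilium genes, often together with RFX factors, which bind a sequence called the X-box.

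The names did not take axonemal genes alone. By textbook function, 59 of the 84 members belong to the axoneme, its assembly, ciliary transport, their regulation or, for Tmem212, an ependymal membrane protein. The other 25, all of the Ttc and Spag families, share a tetratricopeptide repeat or a naming history and are not known as axonemal. They are given separately throughout. Deposited symbol and reference symbol agreed for 81 of the 84 members: the members listed as Spag6 and Ttc18 are now called Spag6l and Cfap70, and the identifier listed as Cfap74 is missing from the annotation used, so its identity is uncertain. Rsph3a, Rsph3b and Ttc37 lay just inside the level rule, which reached 1.13, 1.26 and 2.07 FPKM or more in 4 libraries. Ttc7, Ttc36 and Spag4 lay just outside, with 0.904, 0.691 and 0.613 FPKM by the same measure. Among the 17 named genes that stayed out were Tekt3, Tekt5, Rsph6a and the dynein heavy chains Dnah7a, Dnah8 and Dnah14.

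Promoters of these genes were searched for the X-box because its letters are what RFX factors read. In RefSeq windows of GRCm38.p6 that run from 250 bases before to 50 bases after a gene's start, 47 of the 59 members with an axonemal or ciliary role had an entry, in 51 windows. The X-box consensus was searched on both strands. It was present in 11 of the 51 windows (21.6%), in 2 of 25 windows (8.00%) of the members without such a role, and in 714 of all 32851 windows (2.17%). The shorter core GTTGCC, searched likewise and able to overlap an X-box, was in 37.3% of the 51 windows and in 12.5% of all windows. The forkhead core TGTTTAC was in 7.84% and 3.65%. These shares are descriptions of letters, and related genes are not independent. Members were matched by symbol.

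The 5 windows below are shown because their X-box lies within 45 bases before the gene start and their genes are described in the results. Each run holds the 150 bases before and the first 10 bases of the gene, read 5′ to 3′ on the gene's strand, with the X-box in capitals.
Enkur, chr2:21205356-21205515, minus strand: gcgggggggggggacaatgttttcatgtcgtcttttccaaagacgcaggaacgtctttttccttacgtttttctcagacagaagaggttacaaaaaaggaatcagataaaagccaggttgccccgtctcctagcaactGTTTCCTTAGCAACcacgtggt
Cfap61, chr2:145934634-145934793, plus strand: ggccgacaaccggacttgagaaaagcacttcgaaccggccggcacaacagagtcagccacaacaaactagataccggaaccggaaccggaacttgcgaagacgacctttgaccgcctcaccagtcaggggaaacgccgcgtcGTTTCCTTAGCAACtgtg
Hydin, chr8:110266827-110266986, plus strand: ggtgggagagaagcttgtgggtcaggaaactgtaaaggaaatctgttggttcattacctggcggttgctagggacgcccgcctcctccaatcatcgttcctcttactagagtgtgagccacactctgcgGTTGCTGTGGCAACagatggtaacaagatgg
Cfap44, chr16:44394649-44394808, plus strand: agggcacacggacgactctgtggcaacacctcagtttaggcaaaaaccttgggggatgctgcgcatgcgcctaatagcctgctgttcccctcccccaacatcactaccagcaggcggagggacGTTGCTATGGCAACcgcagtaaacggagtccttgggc
Cfap45, chr1:172520980-172521139, plus strand: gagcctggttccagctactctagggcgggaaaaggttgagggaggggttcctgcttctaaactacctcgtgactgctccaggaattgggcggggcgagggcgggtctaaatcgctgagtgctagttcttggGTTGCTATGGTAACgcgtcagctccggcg
Enkur and Cfap61 carried the same match, GTTTCCTTAGCAAC, starting 12 and 8 bases before the gene start. The matches of Hydin, Cfap44 and Cfap45 fit the motif on the opposite strand and start 21, 27 and 19 bases before it. In 7 of the 11 members with an X-box the match started within 45 bases before the start.

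The axonemal and ciliary members were abundant in reporter-negative thalamus libraries, lower in reporter-negative spinal cord libraries and near 0 in most reporter-positive libraries. Of the 59, a group mean of at least 1 FPKM was reached by 58 in negative thalamus, 54 in negative spinal cord and 26 in the positive group of each region. The median over these members was 6.71 to 9.71 FPKM in the 4 negative thalamus libraries and 3.25 to 4.65 FPKM in the negative spinal cord libraries. It was 0.629 to 0.898 FPKM in the positive thalamus and 0.439 to 0.793 FPKM in the positive spinal cord libraries. In each region the ranges of the negative and positive libraries did not overlap. The 25 members without such a role had library medians of 6.33 to 11.8 FPKM with no such order. The negative thalamus group had the highest mean for 48 of the 59 members, the negative spinal cord group for 8. The level rule used these same values, and 12 of the 59 members met it only through negative thalamus libraries. The 7 taken by name were chosen with results known, so these counts and medians are a description. These libraries are bulk samples, so fewer cells of a type and less RNA per cell cannot be told apart.

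**Figure D1:**
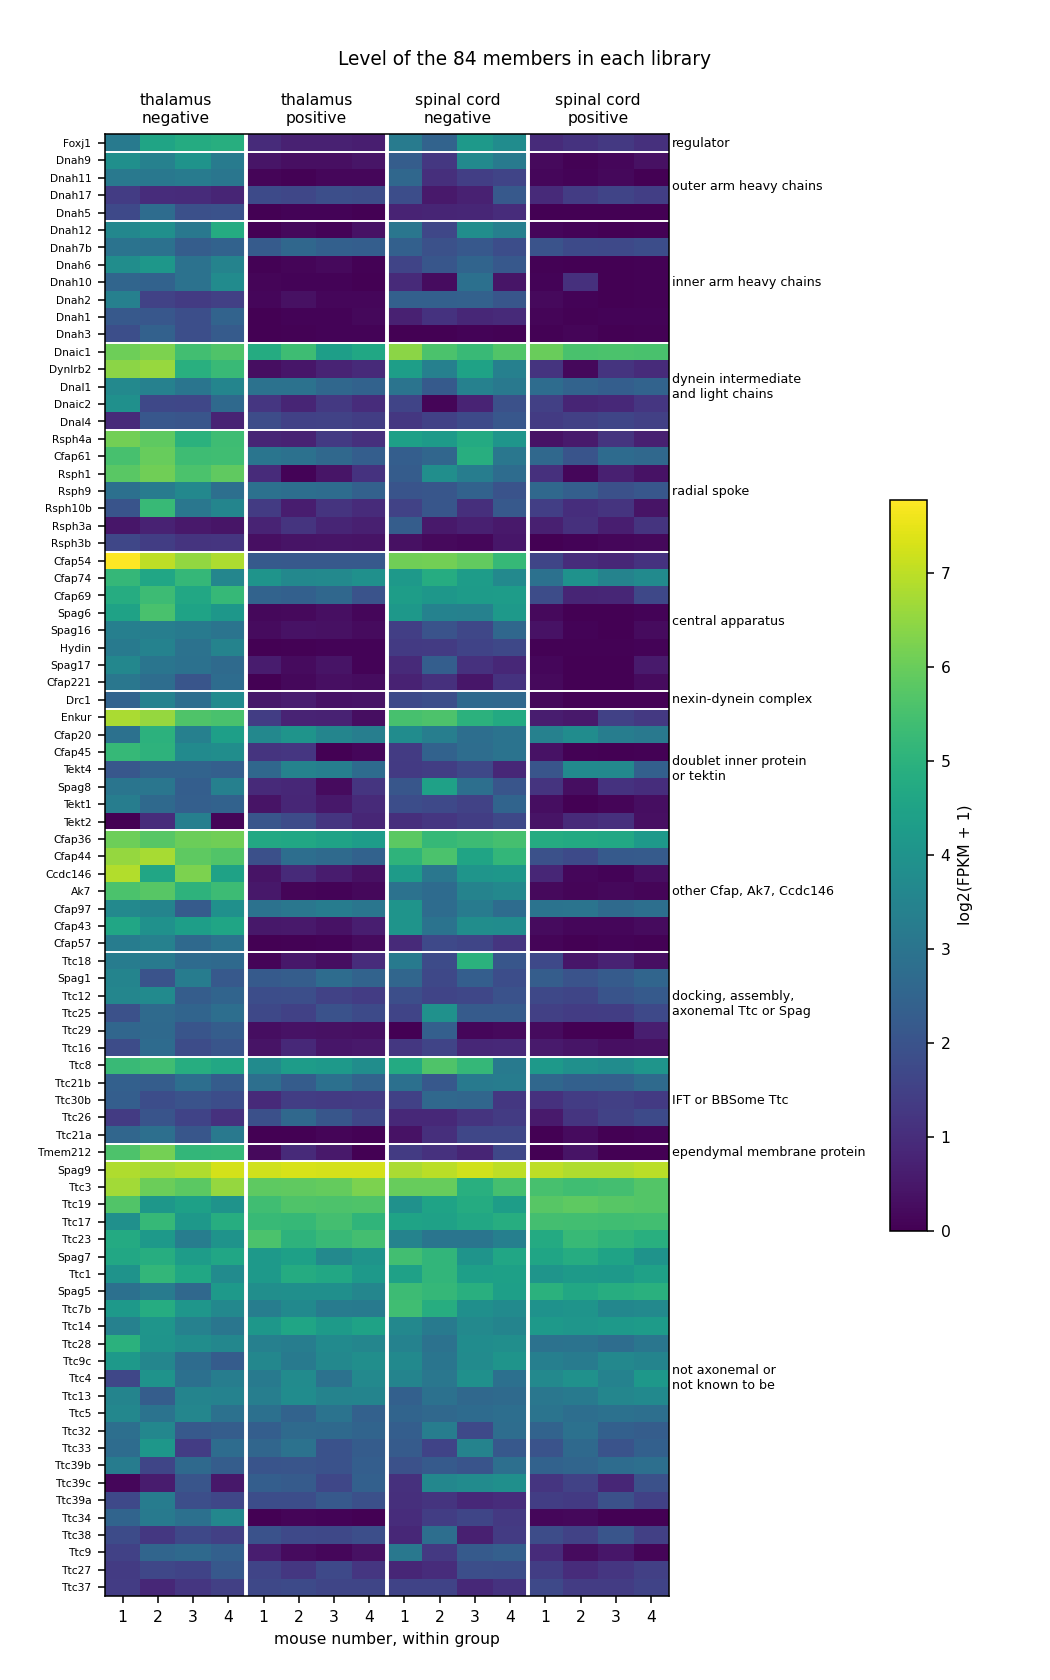
Level of each of the 84 members in each library as log2(FPKM + 1), colour scale at right, with members in rows by role and libraries in columns by group and mouse. The block of 59 axonemal and ciliary members is brightest in negative thalamus, and the 25 members in the lowest block show no common order of the groups.

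Summed FPKM moved with the reporter as well: it was 1402060 to 2344480 in negative and 1092780 to 1283880 in positive thalamus libraries, and 1233150 to 2233820 and 984986 to 1182120 in those of spinal cord. Features of the mitochondrial genome held 73.9% and 71.8% of the sum in the negative libraries of mouse 1, and 43.7% to 62.6% in the other 14. The abundant transcript mt-Co1 is listed at 0 in all 8 negative and 1 of the 8 positive libraries, so these sums and shares do not compare between the gates, and a value of 0 may be a failed estimate. The part of these features in the members' differences was not tested. With median-of-ratios rescaling the numbers of members called stayed at 42 in thalamus and 34 in spinal cord, and without mouse 1 they were 39 and 31.

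The 7 genes taken by name were chosen with results of these data known, so their values are a description and no test is given. Foxj1, the regulator, was at 8.09, 22.2, 26.9 and 28.8 FPKM in negative thalamus libraries of mice 1 to 4 and at 8.52, 4.52, 17.6 and 12.9 FPKM in negative spinal cord libraries. It reached at most 0.943 FPKM in positive thalamus and 1.45 FPKM in positive spinal cord libraries, so the positive and negative groups did not overlap. Enkur, a protein inside the doublet microtubules that also binds calcium channels, was at 111, 92.8, 49.3 and 45.4 FPKM in negative thalamus libraries. In negative spinal cord libraries it was at 44.7, 47.6, 31 and 25.7 FPKM, and no positive library passed 1.86 FPKM. The 2 negative groups overlapped for this gene.
Hydin, a central apparatus protein whose loss causes hydrocephalus, was at 8.29, 9.84, 6.57 and 10.2 FPKM in negative thalamus and at 1.49, 1.54, 1.93 and 2.21 FPKM in negative spinal cord libraries. No positive library passed 0.0547 FPKM, and here all negative thalamus libraries lay above all negative spinal cord libraries. Ak7, an adenylate kinase of the axoneme, averaged 42.8 ± 9.27 and 8.36 ± 2.76 FPKM in the negative groups of thalamus and spinal cord, and 0.167 ± 0.167 and 0.105 ± 0.0307 FPKM in the positive groups (SD, n = 4). Dynlrb2, a dynein light chain, averaged 61.4 ± 32.9 and 15 ± 6.37 FPKM in the negative groups. Ccdc146, a centriole and axoneme protein, averaged 59.6 ± 46.5 and 14.4 ± 4.78 FPKM. Tmem212, found in ependymal cells, had the steepest regional difference of the 7: 47.8, 70.8, 34.9 and 35.2 FPKM in negative thalamus against 1.57, 1.15, 0.750 and 2.12 FPKM in negative spinal cord libraries. In positive libraries Tmem212 was at 0.886 FPKM or less.

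Positive libraries were compared with negative libraries in each region to ask which members differ with the Il33 reporter. The test was limma on log2(FPKM + 1) over all 16340 features, with Benjamini-Hochberg adjustment, and a gene is called where its adjusted p was under 0.05. Differences are on that log2 scale, as positive minus negative with the standard error, and understate the change of weakly expressed genes. In the thalamus 38 of the 77 members taken by family name were called lower and 4 higher, while 13.6% of all features were called lower, 11.6% higher and 25.2% in either direction. In the spinal cord 29 were called lower and 5 higher, against 10.5% and 9.04% of all features, and 19.6% in either direction. Among the 52 of these with an axonemal or ciliary role, 35 fell in the thalamus with a median difference of -2.04, beside 0.06 over all features. In the spinal cord 26 of the 52 fell, Tekt4 rose, and the median was -0.79 beside 0.09. Both medians include genes that missed the threshold. For 13 members, 12 of them axonemal, the level rule was met only through the negative thalamus libraries, and these had to differ. Of the 40 axonemal family members that met the rule without any 1 group, 24 fell in thalamus and 19 in spinal cord. In all, 28 family members fell in both regions, which is 73.7% of the thalamus list and 96.6% of the spinal cord list. They include members whose fall in thalamus the level rule fixed. The share of all features called lower in both regions was not computed, so this overlap is only a description.

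**Figure D2:**
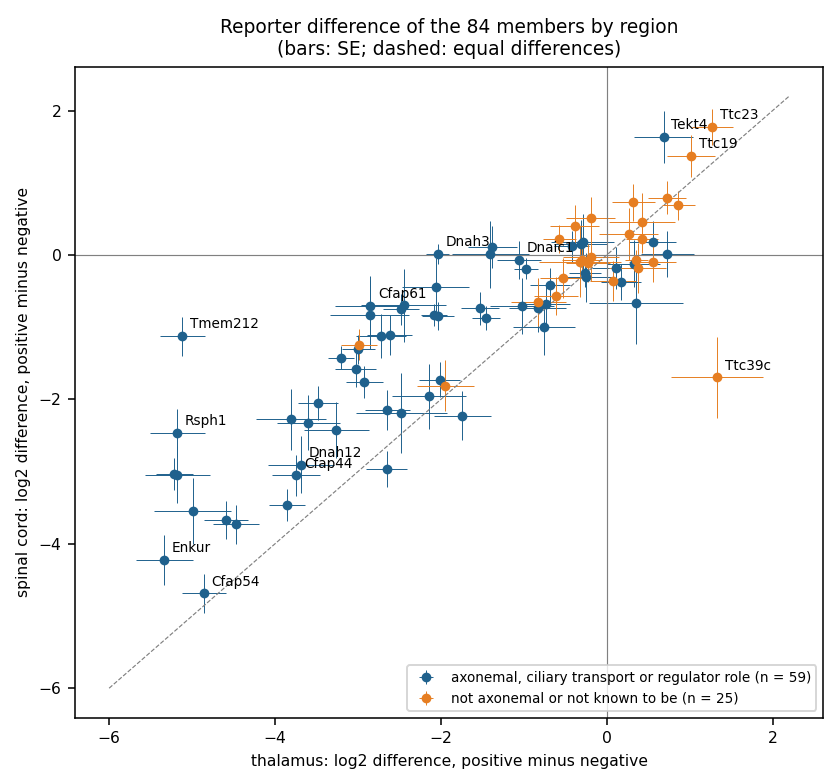
Log2 difference between positive and negative libraries in thalamus (horizontal) and spinal cord (vertical) for each of the 84 members, with bars for the standard error. The axonemal and ciliary members lie mostly to the lower left and above the dashed line of equal differences, while the 25 others lie mostly near 0.

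Dynein heavy chains are the motors of the axonemal arms. Of the 11 members, 9 fell in thalamus and 7 in spinal cord. The 9 include Dnah1, Dnah3, Dnah5 and Dnah10, which met the level rule only through negative thalamus. The outer arm chain Dnah9 was at 13.7, 9.78, 15 and 8.51 FPKM in negative thalamus and at 0.355, 0.255, 0.255 and 0.346 FPKM in positive thalamus libraries. Its groups did not overlap in either region. It fell by 3.26 ± 0.39 in the thalamus (adjusted p = 3.55e-05 by limma) and by 2.42 ± 0.39 in the spinal cord (limma adjusted p = 0.000472). The outer arm chain Dnah11 was even across mice in negative thalamus, at 7.86, 7.58, 8.35 and 7.37 FPKM, and uneven in negative spinal cord, at 5.12, 1.07, 1.69 and 2 FPKM. It fell by 3.03 ± 0.25 and 1.57 ± 0.25 (limma adjusted p = 1.05e-06 and 0.000423). Dnah5, whose loss causes primary ciliary dyskinesia, is given without a test since the level rule fixed its direction in thalamus, at 2.26, 5.75, 2.77 and 2.86 FPKM in negative thalamus and 0.722 to 0.983 FPKM in negative spinal cord libraries. Dnah17 did not pass the test in either region. Its mean was 1.08 ± 0.378 FPKM in the negative thalamus group and 2.42 ± 0.212 FPKM in the positive one, with a difference of 0.73 ± 0.32 (limma adjusted p = 0.106). Its exons overlap Pgs1 on the opposite strand.

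Among inner arm chains, Dnah12 was the most abundant, at 11.1, 13.7, 7.62 and 26.8 FPKM in negative thalamus and 7.25, 2.19, 13.0 and 9.36 FPKM in negative spinal cord libraries. No positive library passed 0.305 FPKM. Dnah12 fell by 3.68 ± 0.40 in the thalamus (limma adjusted p = 1.5e-05) and by 2.90 ± 0.40 in the spinal cord (limma adjusted p = 0.000129). Dnah3 (chr7:119922671-120095280, GENCODE vM21 on GRCm38, minus strand) stood out by region. It was at 2.68, 4.30, 2.65 and 3.66 FPKM in negative thalamus libraries and at 0.0805 FPKM or less in all 12 other libraries. These 4 libraries alone brought it past the level rule, so its difference of -2.04 ± 0.14 in thalamus is a description. In the spinal cord the difference was 0.02 ± 0.14 (limma adjusted p = 0.953). The inner arm chain Dnah6 was at 13.1, 16.3, 6.67 and 10.1 FPKM in negative thalamus and 2.05, 3.25, 4.65 and 3.41 FPKM in negative spinal cord libraries, which did not overlap. Dnah1 averaged 3.53 ± 0.790 and 0.886 ± 0.237 FPKM in these groups. Dnah10 lay between 4.48 and 12.5 FPKM in negative thalamus, but in negative spinal cord libraries mouse 3 was at 6.37 FPKM and the others at 0.911 FPKM or less. Dnah7b missed the threshold in both regions, with means of 5.41 ± 1.44 and 4.26 ± 0.620 FPKM in negative and positive thalamus libraries. It has near-identical copies, among which the counting could split reads. The mean of Dnah2 in negative thalamus leaned on 1 library: mouse 1 was at 9.47 FPKM and the other mice between 1.57 and 1.87 FPKM. All positive thalamus libraries of Dnah2 lay lower, between 0.0972 and 0.287 FPKM, and the gene was called lower in thalamus. In negative spinal cord libraries Dnah2 lay between 3.26 and 4.34 FPKM, and it fell by 2.22 ± 0.34 there (limma adjusted p = 0.000334).

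Of the 4 intermediate and light chains among the family members, 2 fell in thalamus and the others missed the threshold there. Dnaic1, an outer arm intermediate chain, was the most abundant of them and stayed high in positive libraries. It was at 66.6, 74.4, 42.2 and 49.0 FPKM in negative and at 26.7, 39.998, 19.6 and 23.8 FPKM in positive thalamus libraries, which did not overlap. It was at 85.3, 47.1, 37.5 and 49.8 FPKM in negative and at 62.6, 46.2, 47.0 and 45.3 FPKM in positive spinal cord libraries, which did. Dnaic1 fell by 1.06 ± 0.27 in the thalamus (limma adjusted p = 0.00997), a call that ended without the libraries of mouse 4 (limma adjusted p = 0.0693). Its exons overlap Enho, the adropin gene, on the opposite strand. Enho lay at 5.29 to 7.47 FPKM in positive thalamus and 19.0 to 27.5 FPKM in positive spinal cord libraries, and no strand is stated for the counting. Whether reads of Enho enter the Dnaic1 values was not tested. The intermediate chain Dnaic2 fell in the thalamus by 1.41 ± 0.46 (limma adjusted p = 0.0385). Mouse 1 was at 14.0 FPKM and the others between 2.18 and 5.32 FPKM in negative thalamus, and the call ended without that library (limma adjusted p = 0.086). It also ended without any 1 of the 4 positive thalamus libraries (limma adjusted p = 0.0635 to 0.0895).

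Radial spoke genes carry the signal from the central pair to the dynein arms. Of the 7 family members, 5 fell in thalamus and 2 in spinal cord, with Rsph3b past the level rule only through negative thalamus. Rsph1, a spoke head protein (chr17:31255019-31277383, minus strand), was at 54.1, 67.4, 46.4 and 58.0 FPKM in negative thalamus and 3.81, 13.3, 8.76 and 5.71 FPKM in negative spinal cord libraries. No positive library passed 1.22 FPKM, and the 2 negative groups did not overlap. The Rsph1 difference was -5.18 ± 0.33 in thalamus and -2.46 ± 0.33 in spinal cord, given without a test. The spoke head protein Rsph4a was at 69.1, 56.3, 30.1 and 40.6 FPKM in negative thalamus and 20.7, 18.0, 25.9 and 15.7 FPKM in negative spinal cord libraries, and at 1.52 FPKM or less in positive libraries. It fell by 4.59 ± 0.26 in the thalamus (limma adjusted p = 4.58e-08) and by 3.67 ± 0.26 in the spinal cord (limma adjusted p = 2.18e-07). Cfap61, of the calmodulin- and spoke-associated complex, fell by 2.85 ± 0.42 in the thalamus (limma adjusted p = 0.000237). In the spinal cord its negative libraries were at 4.03, 4.89, 28.2 and 7.54 FPKM, so mouse 3 stood apart, and the difference of -0.71 ± 0.42 missed the threshold (limma adjusted p = 0.265). The groups overlapped there. Exons of Cfap61 overlap Crnkl1 on the opposite strand. Those of other called members overlap other genes too, among them Dnah11 (Cdca7l, opposite strand) and Cfap43 (Itprip, same strand). Whether reads of these genes enter the members' values was not tested. Rsph9, Rsph3a and Rsph3b missed the threshold in the spinal cord, and the last 2 are near-identical copies.

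Central apparatus genes fell in the same number in both regions, 6 of 7 in each. Among them Spag17 and Cfap221 met the level rule only through negative thalamus, so their fall there was fixed. Cfap54 (chr10:92775619-93081618, minus strand) was the most abundant member with an axonemal role, at 219, 127, 91.7 and 113 FPKM in negative thalamus and 67.3, 69.2, 59.1 and 36.3 FPKM in negative spinal cord libraries. It lay at 3.48 to 3.60 FPKM in positive thalamus and 0.817 to 2.07 FPKM in positive spinal cord libraries, so the groups did not overlap. Its positive minus negative difference was -4.86 ± 0.26 in thalamus and -4.69 ± 0.26 in spinal cord, given without a test. Spag6 fell by 4.47 ± 0.27 in the thalamus (limma adjusted p = 9.44e-08) and by 3.73 ± 0.27 in the spinal cord (limma adjusted p = 2.68e-07). Cfap69 fell by 2.65 ± 0.25 and 2.97 ± 0.25 (limma adjusted p = 3.49e-06 and 9.32e-07). The gene listed as Cfap74 missed the threshold in both regions, at 26.2 ± 11.7 and 13.1 ± 1.90 FPKM in negative and positive thalamus libraries. The annotation gives that symbol to the gene deposited as C030017K20Rik, which is no member. C030017K20Rik averaged 13.8 ± 5.41 and 0.643 ± 0.387 FPKM in the same groups and fell by 3.13 ± 0.35 (limma adjusted p = 2.06e-05). Drc1, the one family member of the nexin-dynein regulatory complex, fell by 2.64 ± 0.28 in the thalamus (limma adjusted p = 1.06e-05) and by 2.14 ± 0.28 in the spinal cord (limma adjusted p = 7.23e-05).

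Doublet inner proteins and tektins were mixed. Cfap45 was at 36, 32, 12.1 and 13.1 FPKM in negative thalamus and at 1.34 FPKM or less in positive thalamus libraries. It fell by 3.81 ± 0.43 there (limma adjusted p = 2.08e-05) and by 2.28 ± 0.43 in the spinal cord (limma adjusted p = 0.00161). Tekt4, a tektin best known from sperm flagella, went the other way. It was at 1.51, 1.64, 2.22 and 0.821 FPKM in negative and 3.17, 12.2, 11.7 and 4.18 FPKM in positive spinal cord libraries, which did not overlap. Tekt4 rose by 1.64 ± 0.36 in the spinal cord (limma adjusted p = 0.00486), with the positive value above the negative one in all 4 mice. In the thalamus it was at 3.32 to 4.63 FPKM in negative but 5.04 to 10.1 FPKM in positive libraries, and the difference of 0.68 ± 0.36 missed the threshold (limma adjusted p = 0.176). Cfap20, a doublet protein that primary cilia also use, missed the threshold in both regions, at 16.7 ± 11.2 and 11.6 ± 2.74 FPKM in negative and positive thalamus libraries.

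Of the other Cfap members, Cfap44, a tether of the inner arms, was at 92, 108, 56.4 and 49.4 FPKM in negative thalamus and 32.5, 46.9, 22.3 and 34.7 FPKM in negative spinal cord libraries. Its positive libraries lay between 2.36 and 5.99 FPKM, and it fell by 3.75 ± 0.29 and 3.05 ± 0.29 (limma adjusted p = 5.39e-07 and 3.12e-06). Cfap43 fell by 3.85 ± 0.22 and 3.47 ± 0.22 in thalamus and spinal cord (limma adjusted p = 4.58e-08 and 5.45e-08). Cfap36 fell less, by 1.46 ± 0.17 and 0.87 ± 0.17 (limma adjusted p = 2.89e-05 and 0.00212), and kept 18.8 to 24.8 FPKM in positive thalamus libraries. The Ttc genes of intraflagellar transport and the BBSome, which primary cilia use as well, were called lower in 1 of 5 cases in each region. That member was Ttc21a, which met the level rule only through negative thalamus. The BBSome subunit Ttc8 was at 32.7 ± 7.81 and 15.4 ± 3.08 FPKM in negative and positive thalamus libraries, with a difference of -1.02 ± 0.39 (limma adjusted p = 0.0652).

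**Figure D3:**
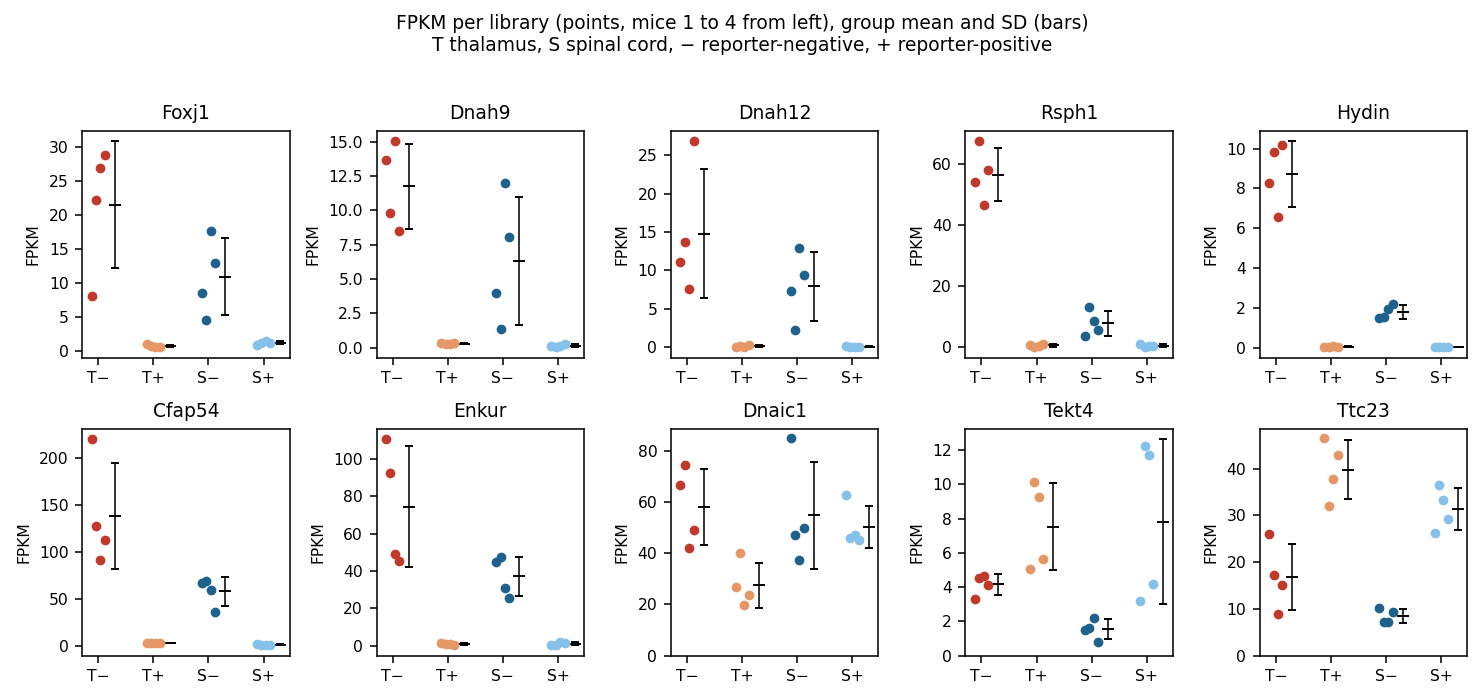
FPKM of 10 members in each library, by group (T thalamus, S spinal cord, − negative, + positive), with bars for the group mean and SD over 4 mice. Foxj1, Dnah9, Dnah12, Rsph1, Hydin, Cfap54 and Enkur lie near 0 in both positive groups, Dnaic1 does not, and Tekt4 and Ttc23 are higher in positive libraries.

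The 25 members with no known axonemal part had 3 lower and 4 higher in each region, or 12% lower, near the shares over all features given above. Ttc34 and Ttc9 were called lower in both. Ttc34 lay at 4.72, 7.96, 6.25 and 11.2 FPKM in negative thalamus and 0.964, 1.67, 2.10 and 1.45 FPKM in negative spinal cord libraries, and at 0.120 FPKM or less in positive libraries. It too met the level rule only through negative thalamus, and its differences of -2.99 ± 0.21 and -1.24 ± 0.21 are given without a test. Ttc23, Ttc19, Ttc17 and Ttc14 were called higher in both regions. The calls of Ttc17 and Ttc14 in both regions, and of Ttc19 in thalamus, ended when mouse 3 or mouse 4 was left out. Their limma adjusted p without mouse 4 was 0.0682 and 0.0777 for Ttc17, 0.0827 and 0.092 for Ttc14 in thalamus and spinal cord, and 0.162 for Ttc19. Ttc17 also lost its spinal cord call without any 1 positive library (limma adjusted p = 0.0518 to 0.0565). Without mouse 1, Ttc17 lost its call in both regions and Ttc14 in spinal cord (limma adjusted p = 0.14, 0.0615 and 0.0753). Without mouse 2, Ttc17 lost it in spinal cord and Ttc19 in thalamus (limma adjusted p = 0.0603 and 0.136). Ttc23, linked to Hedgehog signalling at the base of primary cilia, was at 26.1, 17.2, 8.86 and 15.1 FPKM in negative and 46.5, 32, 37.8 and 43 FPKM in positive thalamus libraries. It rose by 1.27 ± 0.25 in thalamus and 1.78 ± 0.25 in spinal cord (limma adjusted p = 0.00212 and 0.000158), with no overlap between the groups of either region. Ttc19, a mitochondrial complex III factor, rose by 1.02 ± 0.29 and 1.37 ± 0.29 (limma adjusted p = 0.0195 and 0.00393), although mouse 1 was at 49.6 FPKM in negative thalamus, above the positive values of 41.2 to 48.9 FPKM, so the thalamus groups overlapped. Exons of Ttc23, Ttc19 and Ttc14 overlap Synm, Ncor1 and Ccdc39 on the opposite strand. Ccdc39, itself an axonemal ruler gene, averaged 32.5 ± 13.3 FPKM in negative and 10.9 ± 1.67 FPKM in positive thalamus libraries, opposite in direction to Ttc14.

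Regions were compared within the negative libraries to ask how the members differ between thalamus and spinal cord. Of the 77 family members, 26 were called lower and 2 higher in spinal cord, against 4.54% and 5.27% of all features and 9.81% in either direction. Of the 52 with an axonemal or ciliary role 23 fell, with a median difference of -0.92 beside -0.00 over all features. These include members that met the level rule only through negative thalamus and had to differ. Of the 40 that met it without any 1 group, 12 fell, with a median of -0.74. Over the 53 of the 59 members that averaged at least 1 FPKM in both negative groups, the median ratio of thalamus to spinal cord was 2.00, with 45 ratios above 1 and 8 below. They ran from 0.599 for Dnah17 to 33.7 for Tmem212. Tmem212 and some others of the 53 met the level rule only through negative thalamus, so these ratios are a description. Radial spoke genes were called lower in 6 of 7 cases, central apparatus genes in 4 of 7, inner arm heavy chains in 4 of 7 and doublet proteins and tektins in 1 of 6. The 5 largest called falls were those of Rsph1 (-2.80 ± 0.33), Cfap61 (-2.36 ± 0.42), Dnah3 (-2.05 ± 0.14), Cfap45 (-2.05 ± 0.43) and Cfap221 (-1.81 ± 0.22), all by limma, of which Dnah3 and Cfap221 had to differ. The 2 that rose were Ttc39c and Spag5, a mitotic spindle protein. Ttc39c was at 0.0883, 0.515, 3.12 and 0.417 FPKM in negative thalamus and 1.09, 11.1, 12.6 and 13.6 FPKM in negative spinal cord libraries, which overlapped (limma adjusted p = 0.0178). Spag5 was at 6.28, 8.50, 5.20 and 17.3 FPKM in negative thalamus and 39.3, 35.2, 28.8 and 19.9 FPKM in negative spinal cord libraries (limma adjusted p = 0.00119). The count of 28 called fell to 7 when the fit used only the 8 libraries of the 2 groups compared. Over all features the calls fell as well, to 138 lower and 215 higher from 742 and 861.

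**Figure D4:**
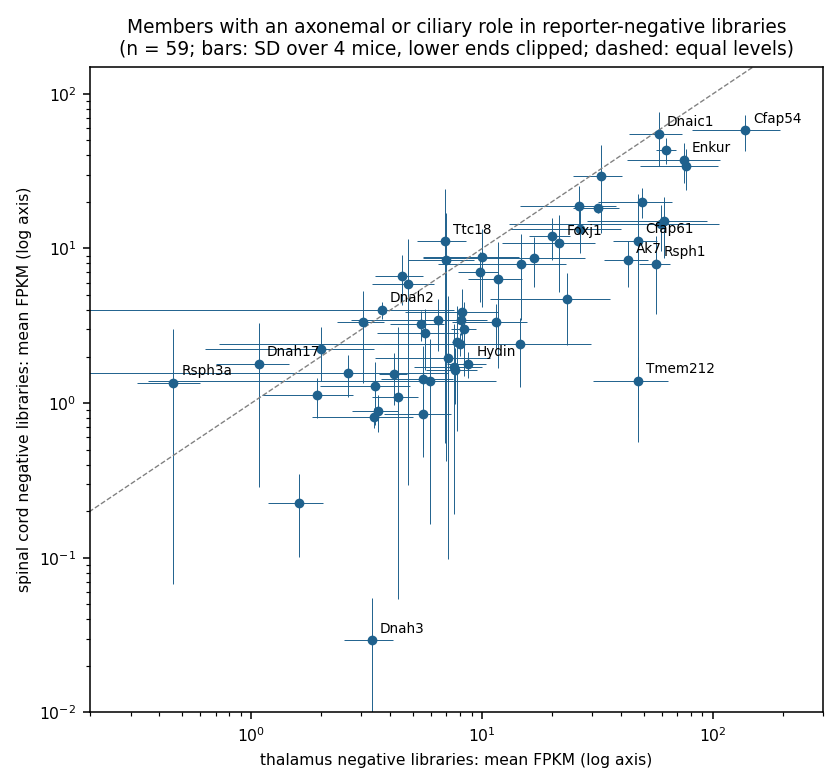
Mean FPKM in negative libraries of thalamus (horizontal) and spinal cord (vertical), both log axes, for the 59 axonemal and ciliary members, with bars for the SD over 4 mice, clipped at low values. Most members lie below the dashed line of equal levels, Dnah3 and Tmem212 farthest from it, and Dnaic1 lies close to it.

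Regions were also compared within the positive libraries. Of the 77 family members 2 were called lower, Cfap54 and Cfap69, and Spag5 was called higher, against 1.88% and 4.22% of all features, and 6.1% in either direction. Cfap69 was at 4.61, 4.22, 5.01 and 2.95 FPKM in thalamus and 2.50, 0.762, 0.793 and 2.25 FPKM in spinal cord libraries (limma difference -1.07 ± 0.25, adjusted p = 0.0166). Each of these calls ended when single libraries were left out, with 0 to 2 members called over those fits. When the fit used only the 8 positive libraries, 13 members were called. Of all 16340 features, 1969 were called lower and 2258 higher in that fit.

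The difference between the regions in the positive minus negative contrast was also tested. It was called for 9 of the 77 family members, all with the larger fall in the thalamus, where 1.13% of all features were called in that direction, 1.43% in the other and 2.56% in either. Of these, Dnah3, Ttc34, Cfap221, Cfap57, Dnah1 and Dnah5 met the level rule only through negative thalamus, which favoured this direction. Some members that met it in the same way, such as Spag17 and Ttc29, were not called. The other 3 were Rsph1 (2.71 ± 0.47, given without a test), Dnah11 (1.45 ± 0.35, limma adjusted p = 0.0424) and Dnah6 (1.43 ± 0.33, limma adjusted p = 0.0353), and they are the 3 called among the 40 axonemal members that met it without any 1 group. Because the positive libraries of these genes were near 0 in both regions, this contrast restates the regional difference of the negative libraries. With the mouse as a block 6 of the members were called, and Dnah5, Dnah6 and Dnah11 were no longer among them (limma adjusted p = 0.0523, 0.0744 and 0.0583). With a pseudocount of 0.1 in place of 1, 2 members were called.

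Cilium genes that the name rule did not take were described with the same fit. Some belong to the same families but were deposited under another symbol. Of these, 17 were tested, and 14 fell in thalamus and 9 in spinal cord. The genes now called Cfap299, Cfap161 and Drc7 met the level rule only through negative thalamus, so their fall in thalamus was fixed. For Cfap299 the regional difference given below was fixed as well. Ccdc108, now called Cfap65, was at 73.5, 46.2, 29.7 and 33.6 FPKM in negative thalamus and 0.343 to 0.519 FPKM in positive thalamus libraries. The gene now called Cfap299 averaged 16.6 ± 5.44 FPKM in negative thalamus and 0.312 ± 0.320 FPKM in negative spinal cord libraries. Lists of other cilium genes held 122 tested genes that are not members, and at least 4 of the 17 genes above are among them. Of the 122, 73 fell and 1 rose in thalamus, and 40 fell in spinal cord, beside the background shares given above. Genes that met the level rule only through negative thalamus were not set apart in these lists or in the marker lists below.

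These lists differed in how many of their genes fell. Over all features, 13.6% were called lower in thalamus and 10.5% in spinal cord. Central apparatus and other axonemal proteins fell in 28 of 35 cases in the thalamus and 18 of 35 in the spinal cord. Nme5, of the radial spoke neck, was at 71.2, 58.7, 37.6 and 57.7 FPKM in negative and 5.23 ± 1.85 FPKM in positive thalamus libraries. Nexin-dynein genes fell in 7 of 8 and 1 of 8 cases. Iqcg was the most abundant, with a mean of 46.4 ± 23.5 FPKM in the negative thalamus group and 3.12 ± 0.489 FPKM in the positive one, and Gas8 missed the threshold in both regions. Dynein docking and ruler genes fell in 5 of 6 and 3 of 6 cases, and assembly factors in 9 of 13 and 5 of 13. Of the other dynein subunits, which include cytoplasmic dynein, 8 of 13 fell and 1 rose in the thalamus, and 9 fell in the spinal cord. Among genes that primary cilia share, intraflagellar transport genes fell in 7 of 26 and 2 of 26 cases and BBSome genes in 4 of 9 and 1 of 9. The spinal cord counts of the nexin-dynein, intraflagellar transport and BBSome lists lay near the share over all features. Differences between the shares of these lists were not tested. Of 12 tested regulators of multiciliation 6 fell in the thalamus and 1, Rfx2, in the spinal cord, the latter near the share over all features. The RFX factors Rfx4 and Rfx3 missed the threshold in both regions, with Rfx4 averaging 71.6 ± 18.6 FPKM in the negative thalamus group and 73.9 ± 6.05 FPKM in the positive one.

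**Figure D5:**
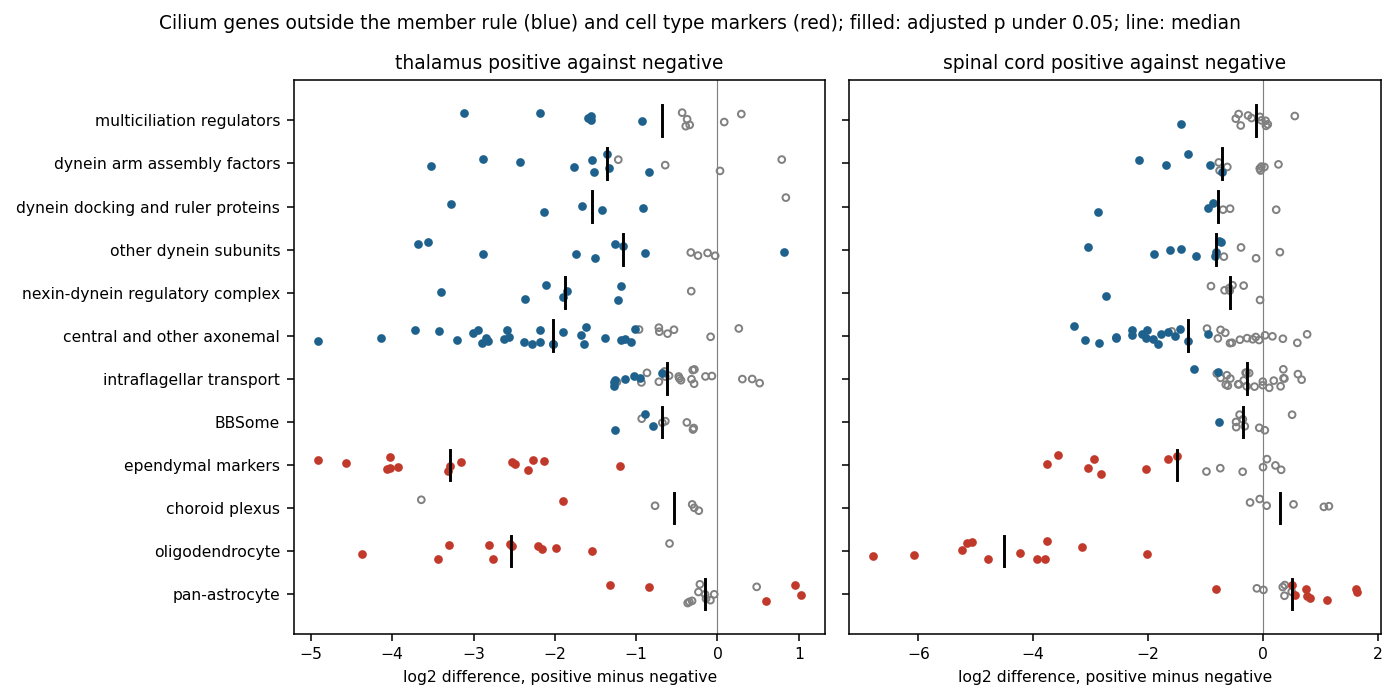
Log2 difference of positive minus negative libraries in thalamus and spinal cord for cilium genes outside the name rule (blue) and for cell type markers (red), 1 point per tested gene, filled where the adjusted p was under 0.05, with a line at the list median. Central apparatus and other axonemal genes lie far left in both regions, intraflagellar transport and BBSome genes nearer 0, and oligodendrocyte markers farthest left in spinal cord.

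Markers of some other cell types moved with the same contrasts, read against 13.6% of all features called lower in thalamus and 10.5% in spinal cord. A list of 15 further ependymal markers, of which Ccdc153, Fam183b and Sntn also encode cilium proteins, fell in 15 of 15 cases in the thalamus and 8 of 15 in the spinal cord. Its summed level was 568 to 792 FPKM in negative but 62.5 to 89.9 FPKM in positive thalamus libraries, and 242 to 433 and 45.4 to 52.6 FPKM in those of the spinal cord. Nnat and Pltp were its most abundant genes, and 10 of the 15 averaged under 1 FPKM in each positive group. Oligodendrocyte markers fell in 11 of 12 and 12 of 12 cases. Their sum was 452 to 956 FPKM in negative thalamus and 3402 to 3583 FPKM in negative spinal cord libraries. Between these negative groups all 12 were called higher in spinal cord, beside 5.27% of all features. Of the 52 axonemal family members 23 were called lower there, beside 4.54% of all features. Those 23 include members that met the level rule only through negative thalamus. Of 6 tested choroid plexus markers 1 fell in thalamus and the others missed the threshold, as did all 6 in spinal cord. The list summed to 50.1 to 680 FPKM in negative thalamus and 4.13 to 11.8 FPKM in negative spinal cord libraries. Ttr, the main choroid plexus transcript, was at 469, 599, 0.397 and 11.4 FPKM in negative thalamus libraries of mice 1 to 4. The level of the axonemal members over their group mean had a median of 1.12, 1.12, 0.763 and 0.842 in the same libraries. For the further ependymal markers this median was 0.900, 1.3, 0.73 and 0.988. Pan-astrocyte markers summed to 7536 to 9910 FPKM in negative thalamus and to 7650 to 9313 FPKM in positive thalamus libraries, with 2 of 15 called lower and 3 higher. In spinal cord they summed to 10496 to 12618 FPKM in negative and 15968 to 17763 FPKM in positive libraries, with 1 called lower and 8 higher. Of the further lists, only microglia markers lay near the share over all features in both regions. Neuron markers lay near it in spinal cord only. Oligodendrocyte precursor markers fell in 3 of 7 and 4 of 7 cases in thalamus and spinal cord, neuron markers in 3 of 8 and 1 of 8, microglia markers in 1 of 7 and 1 of 7, endothelial and mural markers in 3 of 12 and 8 of 12, and tanycyte markers in 4 of 5 and 2 of 5, with 1 tanycyte marker higher in spinal cord. The part of these other cell types in the members' differences was not tested.

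The authors' deposited table of positive against negative libraries lists 444 genes, 221 lower and 223 higher, with 18 members among them. Lower values held for 17 of the 18 members in the authors' deposited table, and a higher one for Ttc23. The lowest log2 fold changes in the authors' deposited table were -6.96 for Ak7, -6.75 for Spag6 and -5.74 for Enkur. Some entries there, such as those of Cfap74 and Ttc8, missed the threshold in both regions in the fit used here.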

How the data were processed

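Per the labels' protocols, RNA of sorted cells was purified by Qiagen columns and amplified into libraries by NuGEN chemistry. The submitters' processing notes name the build GRCm38 and the tools Cufflinks, Cuffnorm, DESeq2, FastQC, HTSeq 0.6.1p1, Bowtie2 2.2.3 and TopHat2 2.0.11. The authors deposited FPKM values for 39171 features in 16 libraries, and summed FPKM ran from 984986 to 2344480 per library. Sequencing depth is unknown, so no counting interval is given. The authors also deposited a comparison table with a mean signal per gene, a log2 fold change, its standard error and test score, and a p-value; only the log2 fold changes are quoted.

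The deposited FPKM were tested as log2(FPKM + 1) by limma 3.58.1 (R 4.3.3). A single model held all 16 libraries with a term for each group and a variance trend, and covered the 16340 features that reached 1 FPKM in 4 or more libraries. A call needed an adjusted p (Benjamini-Hochberg, all features) under 0.05. The fit was tested on simulated data. There were 5 comparisons. The members and gene lists were chosen with earlier results of these data known. No p is given for the 7 genes taken by name, nor for Rsph1 and Cfap54 between positive and negative libraries, nor in thalamus for members that met the level rule only through its negative libraries. Named genes were those 7, the 4 most abundant of each role, the 5 largest called changes of each comparison and direction, calls against the main direction, the 3 members just inside and outside the level rule, and the 3 most abundant of each cilium list or 2 of each marker list. Genes given library by library, and Dnah2, Dnaic2, Cfap65 and Cfap299, were chosen after their values were seen. The labels give each library's mouse, so equal numbers pair libraries by animal. Deviations from group means correlated by 0.036 on average over the 24 same-mouse pairs (-0.013 to 0.092) and by -0.012 over the 72 others. No pair of libraries was identical. Alternatives were another pseudocount, other level filters, median-of-ratios rescaling, the mouse as a block, only the groups compared, and each library or mouse left out. Gene positions are from GENCODE vM21 and promoter windows from RefSeq on GRCm38.p6.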

Additional observations from a re-analysis of the deposited data

Results flagged for a closer look

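In 15 of 196 tested group-and-gene combinations over 49 printed members, 1 of the 4 libraries stood apart from the other 3, where chance alone flags about 1 in 20. High single libraries were Dnah2 in negative thalamus (9.47 FPKM, mouse 1), Ttc19 in negative thalamus (49.6 FPKM, mouse 1), Ttc39c in negative thalamus (3.12 FPKM, mouse 3), Cfap61 in negative spinal cord (28.2 FPKM, mouse 3) and Dnah10 in negative spinal cord (6.37 FPKM, mouse 3). Ttc25 in negative spinal cord (14.3 FPKM, mouse 2), Dnaic1 in positive spinal cord (62.6 FPKM, mouse 1) and Ttc3 in positive thalamus (75.0 FPKM, mouse 4) were also high. Low single libraries were Dnah2 in negative spinal cord (3.26 FPKM, mouse 4) and Cfap61 in positive spinal cord (3.06 FPKM, mouse 2). The others lay near or under 1 FPKM: Dnah10 (1.12 FPKM), Tmem212 (0.336 FPKM), Cfap45 (0.297 FPKM) and Drc1 (0.123 FPKM) in positive spinal cord and Dnah2 (0.287 FPKM) in positive thalamus.

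The positive minus negative difference was closer to 0 in spinal cord than in thalamus, by the limma test of that difference, for 9 members. On the log2 scale the differences between regions were 2.71 for Rsph1, 2.06 for Dnah3, 1.74 for Ttc34, 1.73 for Cfap221, 1.69 for Cfap57, 1.45 for Dnah11, 1.43 for Dnah6, 1.25 for Dnah1 and 1.19 for Dnah5. Of these, all but Rsph1, Dnah11 and Dnah6 met the level rule only through negative thalamus libraries, which favoured this direction.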

How the results depend on the processing

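No called difference of a named gene changed sign under an alternative, and differences that missed the threshold were not checked. For the 7 genes taken by name, a sign change was looked for only where the difference exceeded 2 standard errors. Requiring 5 FPKM in place of 1 tested fewer members, and then 27 were called in the thalamus in place of 42, 14 in place of 28 between regions in negative libraries, and 1 in place of 9 for the difference between regions. A pseudocount of 0.1 gave 2 for that difference and 6 in place of 3 between regions in positive libraries. Fitting only the groups compared gave 7 in negative and 13 in positive libraries, and the calls over all features changed as well. The cause was not tested. With the mouse as a block, the paired fit called 44 in thalamus, 34 in spinal cord, 6 for the difference, and 29 and 3 between regions in negative and positive libraries. Leaving out a library or a mouse gave 37 to 43 calls in thalamus, 26 to 34 in spinal cord, 1 to 12 for the difference, with 1 without mouse 4 and 5 without mouse 2 or mouse 3, and 17 to 34 between regions in negative libraries, with 17 without mouse 2. In positive libraries it gave 0 to 2, with 0 without mouse 2 or mouse 3. Calls of 35 of 126 named results ended under at least 1 alternative. This held in thalamus for Dnaic1, Dnaic2, Ttc14, Ttc17 and Ttc19, in spinal cord for Cfap221, Dnah5, Ttc14, Ttc17, Ttc18 and Ttc39c, and between regions for Cfap44, Cfap45, Cfap54, Cfap61, Dnah5, Dnah6, Dnah10, Dnah11, Rsph4a, Spag5, Ttc12, Ttc23 and Ttc39c in negative and Cfap54, Cfap69 and Spag5 in positive libraries. For the difference between regions it held for 8 of the 9 genes, with Dnah3 the exception. FPKM near 0 limit what can be said of positive libraries.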

Other observations

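The level of axonemal members differed between mice in negative thalamus libraries: mouse 1 was highest for 20 and mouse 2 for 21 of 58 members, and mouse 3 was lowest for 28. In negative spinal cord libraries no mouse was highest for more than 15 of 54. Among the regulators of multiciliation, Myb averaged 5.58 FPKM in negative thalamus and 0.923 FPKM in negative spinal cord libraries, and Trp73 2.07 and 0.244 FPKM. Rfx2, by contrast, averaged 5.57 and 5.55 FPKM in the same groups.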
